A study of Mus musculus with 6 samples.

Results

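The complement genes C3, C4b, Cfb, C1s1, C1ra, Serping1, Cd55, Cd59a and C1qa were followed in cultured cells from the mouse choroid, the vascular coat of the eye, and from the retinal pigment epithelium (RPE), a pigmented sheet that serves the photoreceptors. These 9 genes of the 52636 in the count table were chosen by name, and all 9 were found in it by symbol. Single-cell RNA sequencing with a 10x Genomics 3′ library, which counts RNA molecules by unique molecular identifiers (UMIs), had been run on 25428 cells from 6 samples. All samples came from male C57BL/6J mice of 12 to 16 months. 3 samples were Dram2 wt/wt and 3 were Dram2 ko/ko, a constitutive knockout in every cell made by deletion of exon 4. Dram2 encodes a lysosomal membrane protein. The cells of both genotypes had been grown in culture in an RPE growth medium before sequencing, so the levels describe cultured cells and not the intact tissue. The deposited annotation gave each cell 1 of 8 types, and each fibroblast also 1 of 9 sub-clusters.

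Complement is a cascade of blood and tissue proteins that marks targets for removal. In the classical pathway, C1q (built from C1qa, C1qb and C1qc) binds the target, and its proteases C1r and C1s cut C4 and C2; in the alternative pathway, factor B (Cfb) drives cleavage of C3, the component on which all routes converge. Host cells are protected by inhibitors, among them the secreted C1 inhibitor (Serping1) and the membrane proteins CD55 and CD59, and variants of complement genes are known risk factors for age-related macular degeneration, a disease of the RPE and choroid.

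The summed UMI count of a sample was 96808998 to 122746184, and the median cell of a sample held 16453 to 47373 UMIs. Dram2 ko/ko replicate 2 had the most cells (6648) and the shallowest ones, and Dram2 ko/ko replicate 3 was the only sample of batch 2, so batch was not separable from genotype in that sample. Dram2 stood at 33.4, 39.6 and 38.1 CPM (counts scaled to a common total) in Dram2 wt/wt and at 30.7, 28.3 and 30.1 CPM in Dram2 ko/ko. The 3′ end of the transcript, which these libraries read, lies outside the deleted exon, so this level does not test the deletion. The annotated cell type names were kept. In cells named Pericyte, 3 of the 6 pericyte markers (Kcnj8, Higd1b and Ndufa4l2) had 0 UMIs, which allows up to 0.563 CPM, and the others stood at 207 CPM for Cspg4, the highest of any type, 27.8 CPM for Pdgfrb and 8.44 CPM for Rgs5, both below Fibroblast cells (86.1 and 67.0 CPM). The 5 Schwann cell markers were all counted there, at 49.3 CPM for S100b to 389 CPM for Ngfr. In cells named RPE, 7 of the 10 RPE markers were higher than in any other type, led by Krt18 (473 CPM) and Otx2 (74.1 CPM), while Mitf, Best1 and Pmel were not, and Rpe65, which defines mature RPE, stood at 0.429 CPM. Myeloid cells also held fibroblast RNA: the 6 fibroblast markers summed to 1676 to 4494 CPM in a sample, against 4227 to 5365 CPM in Fibroblast and 344 to 1166 CPM in RPE cells. The names of the deposited cells hold no barcodes, so barcodes shared between libraries were not counted.

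The parts of C1 were distributed differently over the cells. C1qa, a chain of the recognition molecule C1q, was found in Myeloid cells: 1791 of its 1875 UMIs (95.5%) came from this type, which held 0.33% of all cells. Most UMIs of the proteases that attach to C1q were in fibroblasts, which are also most of the cells. Of the 2230 UMIs of C1s1, 61.0% were in Fibroblast, 21.5% in Fibroblast 2 and 0.359% in Myeloid cells, and of the 392 UMIs of C1ra, 57.9% were in Fibroblast, 17.3% in Fibroblast 2 and 0.51% in Myeloid cells. These Myeloid shares are close to the share of cells, and in cells that also held fibroblast RNA they do not show whether Myeloid cells make the proteases. The genes of each part are neighbours. C1qb, C1qc and C1qa follow each other on chromosome 4 (C1qa at chr4:136895917-136898803, minus strand, GRCm38, with 2851 bases between C1qc and C1qa). C1ra (chr6:124512405-124523443, plus strand) and C1s1 (chr6:124530345-124542359, minus strand) lie on chromosome 6 with 6901 bases between them.

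**Figure D1:**
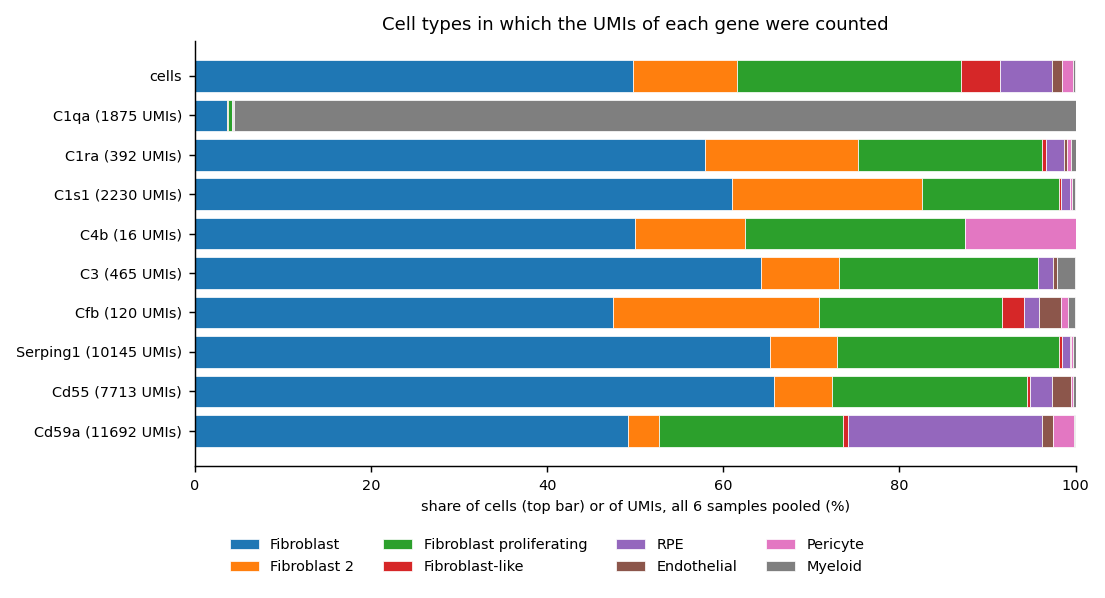
Share of the cells (top bar) and of the UMIs of each complement gene (other bars) by annotated cell type, in percent, with all 6 samples pooled. C1qa is almost wholly in Myeloid cells, 95.5% of its 1875 UMIs, and Cd59a has 22.1% of its UMIs in RPE cells, which are 5.87% of all cells, with 2.33% to 54.7% in single samples and 10.9% pooled without Dram2 ko/ko replicate 3.

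Because the genes of C1q were counted almost wholly in Myeloid cells and those of the C1 proteases were not, the 250 bases before the RefSeq start of these genes are shown, on GRCm38.p6, 5′ to 3′ in the direction of transcription. For C1ra, C1qb and C1qc the RefSeq start differs from that of the GENCODE gene. Inside the GENCODE gene lie 216 bases of the C1ra window, 151 of the C1qc window and 0 of the C1qb window. Entries were present for C1qb, C1qc, C1ra and C1s1, and for 5 of the 9 members (C1ra, C1s1, C3, Cd55 and Cd59a). Capitals mark a match, on either strand, to the PU.1 core GAGGAA or the GC box GGGCGG. No match to the interferon-gamma site TTCNNNGAA or to TATAAA is in these 4 windows. No match in 1 window overlaps another. C1qb is at chr4:136886201-136886450, C1qc at chr4:136892915-136893164, C1s1 at chr6:124542360-124542609 (all minus strand) and C1ra at chr6:124512371-124512620 (plus strand).
C1qb: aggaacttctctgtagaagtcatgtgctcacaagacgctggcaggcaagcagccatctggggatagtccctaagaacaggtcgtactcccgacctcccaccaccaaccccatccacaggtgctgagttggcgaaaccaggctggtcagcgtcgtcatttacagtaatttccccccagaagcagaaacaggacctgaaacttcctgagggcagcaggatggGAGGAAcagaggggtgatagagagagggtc
C1qc: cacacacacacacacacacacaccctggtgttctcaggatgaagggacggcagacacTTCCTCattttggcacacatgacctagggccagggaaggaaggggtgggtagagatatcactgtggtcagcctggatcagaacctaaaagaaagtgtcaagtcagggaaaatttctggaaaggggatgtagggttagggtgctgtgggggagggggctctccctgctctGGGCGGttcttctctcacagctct
C1ra: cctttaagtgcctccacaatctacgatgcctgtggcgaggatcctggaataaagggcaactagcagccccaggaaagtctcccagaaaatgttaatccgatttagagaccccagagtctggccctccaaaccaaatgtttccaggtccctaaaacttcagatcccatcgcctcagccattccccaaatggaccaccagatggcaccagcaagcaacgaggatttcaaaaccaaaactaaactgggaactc
C1s1: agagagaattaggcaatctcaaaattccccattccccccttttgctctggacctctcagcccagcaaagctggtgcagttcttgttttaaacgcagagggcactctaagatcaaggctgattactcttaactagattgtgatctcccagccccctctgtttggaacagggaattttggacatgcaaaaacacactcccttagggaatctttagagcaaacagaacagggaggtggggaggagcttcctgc
Both C1q windows hold a PU.1 core, as do 23.3% of the 32851 promoter windows of this length. The C1qc window also holds a GC box, as do 32.7%. The PU.1 core is not particular to genes of Myeloid cells. The window of Cd59a, whose mean was lowest in Myeloid cells, holds it, and those of C3 and Cd55 do not. Of other pathway genes highest in Myeloid cells, the windows of Fcna and Itgam hold it, and those of C3ar1, C5ar1 and Cfp do not. TTCNNNGAA is in 7.02% and TATAAA in 12.4% of all windows. The C1ra and C1s1 windows (the first of 2 entries for C1s1) hold none of the 4 words, which says nothing about the factors that act there.

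C1qa was at 947 and 880 CPM in the Myeloid cells of the 2 Dram2 wt/wt samples with at least 10 such cells, and at 715 and 950 CPM in those of the 2 Dram2 ko/ko samples (873 ± 110, SD, n = 4). Its level in each of these samples was far above that of every other type, whose highest value in any sample was 2.14 CPM. The other chains of C1q had the same distribution, with C1qb at a mean of 1303 CPM and C1qc at 785 CPM in Myeloid cells. After each cell was thinned to 4000 UMIs, 52 of 81 Myeloid cells (64.2%, exact 95% interval 52.8 to 74.6) had a C1qa UMI, against 7 of 12578 Fibroblast cells (0.0557%, 0.0224 to 0.115), at median depths of 16550 and 26108 UMIs before thinning. Intervals and limits cover counting error only. Among types outside Myeloid, the C1qa levels of neighbours in the order did not separate, and Fibroblast-like and Pericyte cells had 0 UMIs, which allows up to 0.455 and 0.563 CPM. In Fibroblast cells, 47 of the 69 C1qa UMIs (68.1%) were in a single cell of Dram2 wt/wt replicate 1, which had 0 UMIs of C1qb, C1qc, Lyz2 and Tyrobp.

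C1s1, the protease of C1 that cuts C4 and C2, followed a graded order in fibroblasts. Fibroblast 2 cells held 7.63, 7.42 and 8.62 CPM in Dram2 wt/wt and 6.22, 6.28 and 8.17 CPM in Dram2 ko/ko (7.39 ± 0.977, n = 6). Each of these 6 values was above each Fibroblast value (3.801 ± 0.675, n = 6, highest 5.11), and each Fibroblast value was above each Fibroblast proliferating value (1.93 ± 0.144, n = 6). Myeloid cells had 4.04 ± 3.61 CPM (n = 4) from 8 UMIs, and the part of fibroblast RNA in this value was not tested. In the order RPE, Fibroblast-like, Endothelial and Pericyte cells the means were 0.451, 0.459, 0.395 and 0.770 CPM, and their ranges overlapped. By sub-cluster, C1s1 was highest in sub-cluster 7 (16.0 ± 5.54 CPM, n = 6), a group of 214 cells of which 86.4% were named Fibroblast, with no sample below 10.8 CPM, while the highest sample of sub-cluster 3 had 10.7 CPM. Sub-cluster 6 overlapped it, with up to 19.0 CPM from at most 5 UMIs a sample.

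C1ra, the protease that activates C1s, was counted at far fewer molecules. It had 1.39, 1.19 and 1.13 CPM in the Fibroblast 2 cells of Dram2 wt/wt and 0.869, 0.668 and 1.02 CPM in those of Dram2 ko/ko (1.04 ± 0.252, n = 6), overlapping Fibroblast cells (0.611 ± 0.136, n = 6). Myeloid cells had a mean of 0.846 CPM (n = 4), from 2 UMIs in 1 sample. Only 8 C1ra UMIs were counted in RPE cells, and 1 in Endothelial cells. The near-identical copies C1rb and C1s2 had 11 and 34 UMIs over all cells. Since 43.4% of the 31-base words at the 3′ end of C1s1 and 7.84% of those of C1ra are also in another gene, most of the former in C1s2, some reads of these genes could not have been assigned to 1 copy.

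Of the components cleaved downstream, C2, a substrate of C1s and no member of the list, had 4156 UMIs and was highest in Fibroblast 2 cells at 17.8 ± 2.87 CPM (n = 6), while the members C4b, C3 and Cfb had few UMIs. C4b, cut by C1s, had 16 UMIs in all 25428 cells, 0 to 5 in a sample, and no type could be called its source. RPE cells had 0 C4b UMIs, which allows up to 0.0757 CPM. Of the 31-base words at the 3′ end of C4b (chr17:34728380-34743882, minus strand), 38.3% are shared with C4a, which had 12 UMIs. C3 (chr17:57203970-57228136, minus strand) had 465 UMIs, of which 64.3% were in Fibroblast cells. Its level was 1.69 and 4.93 CPM in the Myeloid cells of Dram2 wt/wt and 5.67 and 8.01 CPM in those of Dram2 ko/ko (5.08 ± 2.61, n = 4). These rest on 1 to 4 UMIs a sample, though each lay above all Fibroblast samples (0.826 ± 0.164, n = 6). Fibroblast-like and Pericyte cells had 0 C3 UMIs, which allows up to 0.455 and 0.563 CPM, and RPE cells had 8. Cfb (chr17:34856374-34862518, minus strand) had 120 UMIs, of which 47.5% were in Fibroblast and 23.3% in Fibroblast 2 cells. Its highest type mean, 1.10 ± 1.21 CPM (n = 6) in Endothelial cells, came from 3 UMIs in 3 samples, and overlapped every other type. Each Fibroblast 2 sample (0.208 to 0.890 CPM) was above each Fibroblast proliferating sample (highest 0.185 CPM). With all samples pooled, Fibroblast 2 cells had 0.418 CPM from 28 UMIs and RPE cells 0.0504 CPM from 2 UMIs. The 2 UMIs are too few to place single RPE samples. 74.1% of the 3′ words of Cfb are shared with the annotated gene Gm20547, so its count is uncertain.

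The inhibitors differed in their leading cell type, but only that of Cd55 stood above the next type by mean without overlap. Serping1 (chr2:84765387-84775444, minus strand), the secreted inhibitor of C1r and C1s, had 10145 UMIs. Fibroblast cells held 14.5, 21.9 and 15.8 CPM in Dram2 wt/wt and 19.6, 13.1 and 26.1 CPM in Dram2 ko/ko (18.5 ± 4.96, n = 6). Fibroblast proliferating (14.2 ± 3.06), Myeloid (12.4 ± 5.67 CPM, n = 4) and Fibroblast 2 cells (12.3 ± 3.97) came next, with overlapping ranges. The lowest mean was that of RPE cells, 1.99 ± 1.70 CPM (n = 6). The fibroblast markers stood at 48.0% to 90.9% of their Fibroblast level in Myeloid cells and at 8.74% to 29.0% in RPE cells, and the part of such RNA in the Serping1 values was not tested. Every Fibroblast sample lay above every RPE sample, whose highest value was 3.98 CPM. After thinning, 6.51% of Fibroblast cells (exact 95% interval 6.09 to 6.96) had a Serping1 UMI, against 1.65% of RPE cells (1.06 to 2.44). The median depth was 26108 UMIs in Fibroblast and 22905 UMIs in RPE cells.

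Sub-cluster 7 stood apart for Serping1. The level was 97.9, 117 and 117 CPM in Dram2 wt/wt and 274, 91.4 and 238 CPM in Dram2 ko/ko (156 ± 79.0, n = 6). The lowest of these values was above the highest value of any other sub-cluster, 39.2 CPM in sub-cluster 6. The same cells had little Cd55, 0.789 ± 0.903 CPM (n = 6), and no UMI of C3, C4b, Cfb or C1qa, which allows up to 0.647 CPM of each. Sub-cluster 6 had a median of 21.0% mitochondrial counts and sub-cluster 8 of 91.0%. In sub-cluster 8, 8 of the 9 members had 0 UMIs in 168 cells, which allows up to 5.09 CPM.

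**Figure D2:**
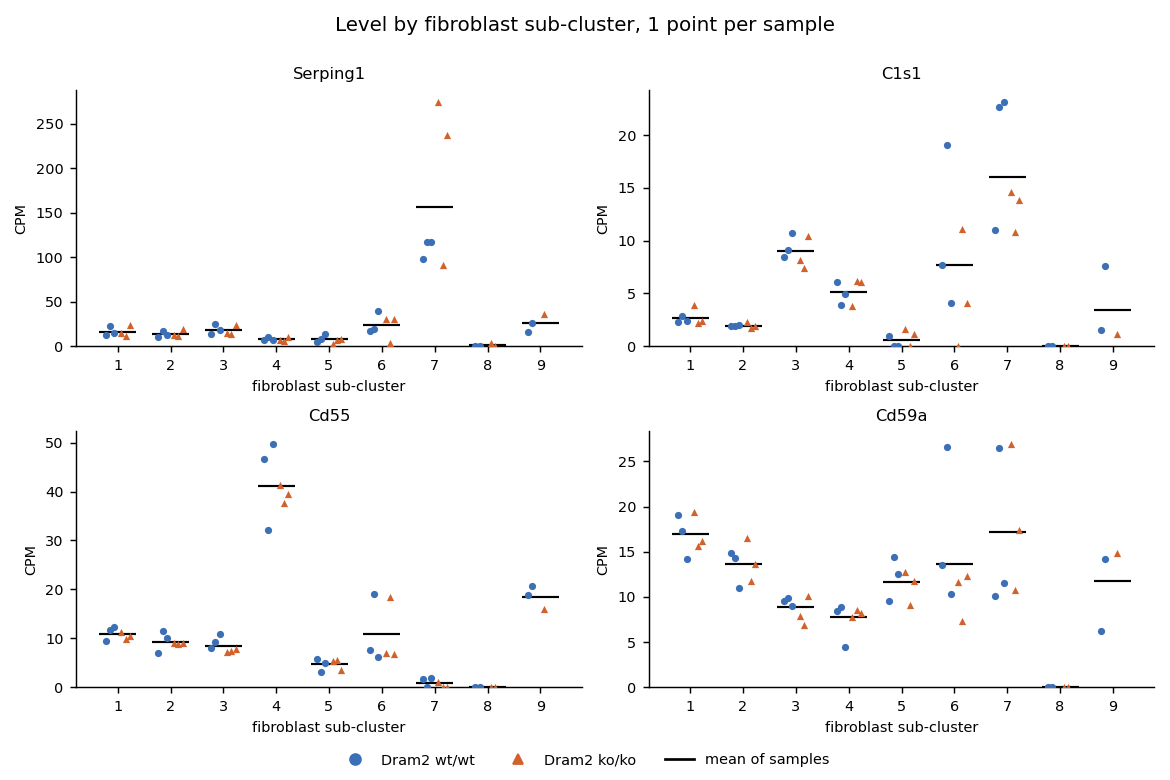
Level in CPM of Serping1, C1s1, Cd55 and Cd59a in the 9 fibroblast sub-clusters, 1 point per sample with at least 10 cells, circles for Dram2 wt/wt and triangles for Dram2 ko/ko, with the mean as a line. Serping1 and C1s1 are highest in sub-cluster 7 (means 156 and 16.0 CPM) and Cd55 in sub-cluster 4 (mean 41.2 CPM).

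Cd55 (chr1:130439027-130462744, minus strand) encodes decay-accelerating factor, which takes apart the enzymes that cut C3. It was highest in Endothelial cells, with 42.1, 57.3 and 56.7 CPM in Dram2 wt/wt and 16.8, 30.0 and 69.9 CPM in Dram2 ko/ko (45.5 ± 19.7, n = 6). The lowest of these was above the highest Fibroblast sample, 16.6 CPM, though Myeloid cells of Dram2 wt/wt replicate 3 reached 19.7 CPM from 8 UMIs. Among fibroblasts, sub-cluster 4, of which 99.0% were Fibroblast cells, had 46.7, 32.1 and 49.8 CPM in Dram2 wt/wt and 41.3, 37.7 and 39.5 CPM in Dram2 ko/ko (41.2 ± 6.34, n = 6), above every sample of every other sub-cluster. RPE cells had 5.57 ± 1.25 CPM (n = 6). The share of cells with a Cd55 UMI after thinning was 16.1% in Endothelial (exact 95% interval 12.0 to 21.0) and 2.13% in RPE cells (1.45 to 3.00). The copy Cd55b had 5 UMIs over all cells, and 17.6% of the 3′ words of Cd55 are shared with it.

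Cd59a (chr2:104095801-104115354, plus strand) encodes a membrane protein that blocks the last step, assembly of the membrane attack complex. RPE cells held 22.1% of its 11692 UMIs, the largest pooled share among the 9 members, but this rests mostly on 1 sample. The share was 2.33% to 54.7% in single samples, and 10.9% pooled without Dram2 ko/ko replicate 3. The Pericyte cells held 60.1, 48.9 and 49.3 CPM in Dram2 wt/wt and 36.3, 48.8 and 82.6 CPM in Dram2 ko/ko (54.3 ± 15.8, n = 6). Endothelial cells held 32.4, 55.1 and 29.8 CPM in Dram2 wt/wt and 62.4, 15.02 and 63.1 CPM in Dram2 ko/ko (43.0 ± 19.98, n = 6). RPE cells held 28.8, 56.4 and 28.9 CPM in Dram2 wt/wt and 25.6, 15.8 and 98.7 CPM in Dram2 ko/ko (42.4 ± 30.7, n = 6). These 3 types overlapped each other. Every Pericyte sample was above every Fibroblast sample (16.0 ± 2.00, highest 18.3 CPM), while 1 RPE and 1 Endothelial sample, both of Dram2 ko/ko replicate 2, were not. The copy Cd59b reached 6.54 CPM in RPE cells.

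Across the samples, Cd59a in RPE cells was highest where the summed RPE markers, mostly Krt18, were lowest. The summed level of the 10 RPE markers, of which Krt18 gives 83.6% of the UMIs, was 1095, 509 and 876 CPM in Dram2 wt/wt and 1065, 1113 and 296 CPM in Dram2 ko/ko, in replicate order. The 2 samples with the lowest sums, Dram2 ko/ko replicate 3 and Dram2 wt/wt replicate 2, had the most Cd59a, 98.7 and 56.4 CPM, and the most cells named RPE, 575 and 539 against 56 to 152 in the other 4. The part of these differences in the Cd59a level was not tested.

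**Figure D3:**
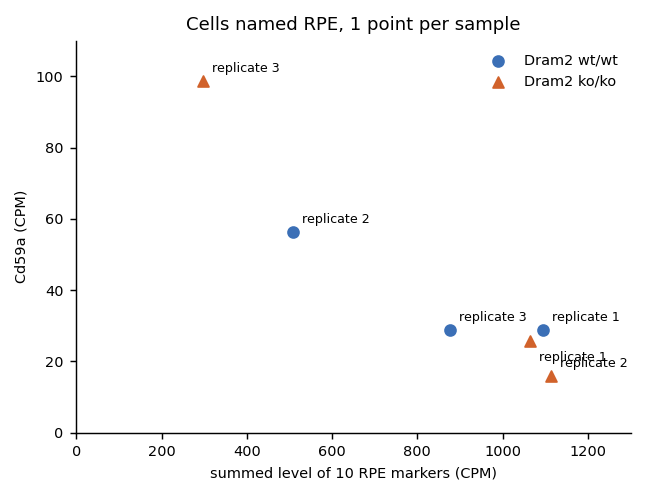
Cd59a level in CPM (y axis) against the summed level of 10 RPE markers in CPM (x axis, 83.6% of it Krt18) in the cells named RPE, 1 point per sample, circles for Dram2 wt/wt and triangles for Dram2 ko/ko. Dram2 ko/ko replicate 3 (98.7 CPM of Cd59a, 296 CPM of markers) and Dram2 wt/wt replicate 2 (56.4 and 509 CPM) lie apart from the other 4.

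**Figure D4:**
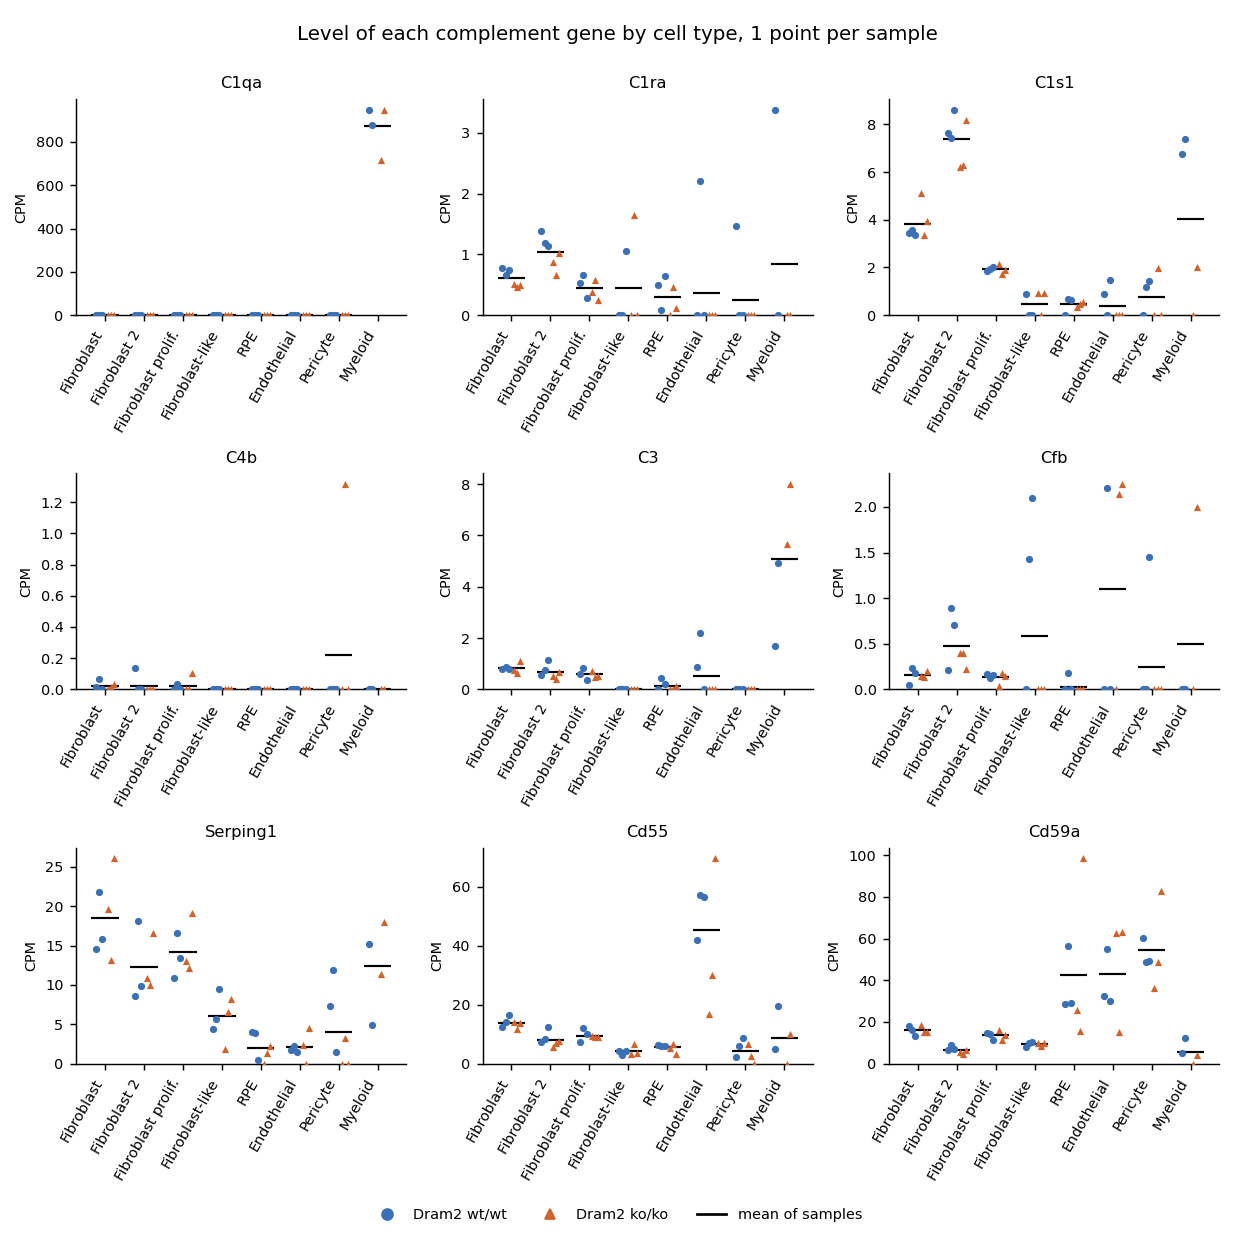
Level in CPM of the 9 complement genes in the 8 annotated cell types, 1 point per sample with at least 10 cells of the type, circles for Dram2 wt/wt, triangles for Dram2 ko/ko, and the mean as a line; each panel has its own y axis. C1qa is in Myeloid cells (mean 873 CPM), Cd55 is highest in Endothelial cells (mean 45.5 CPM), and C4b, Cfb and C1ra stay below 4 CPM in every sample.

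Genes with the most similar levels were looked up for each member by Pearson correlation of log2(CPM + 1) over 46 sums of a sample and a cell type, among 11156 genes. The sums share libraries and depth, so these values are descriptions. C1qa was closest to the myeloid genes Cd84 (r = 0.99), Adgre1 (0.99) and Evi2b (0.99). The rank correlation (Spearman rho) with them was lower, at 0.67, 0.55 and 0.43. Serping1 was closest to Slc1a6 (0.87), Svep1 (0.86) and Col10a1 (0.85), C1s1 to Gucy1a1 (0.86), Htra4 (0.85) and Pld3 (0.84), and Cd55 to Ppm1f (0.88), Dock9 (0.87) and Ltb4r2 (0.85). Cd59a was closest to Nebl (0.84), Vldlr (0.81) and Lrrc8b (0.80), and C3 to the leukocyte genes Cd53 (0.87) and Cd200r1 (0.87), then Abcc3 (0.86). For C3 the rho values were 0.77, 0.75 and 0.74, and only 10 of its 465 UMIs were in Myeloid cells. For C1ra, Cfb and C4b the highest values were 0.61, 0.53 and 0.44.

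The other genes of the pathway were a list of 48. In 4 of them no UMI was counted (Mbl1, Cfd, Vsig4 and Fcnb), 24 had under 1 CPM as the mean of every type, and 17 reached 20 CPM in at least 1 type. Myeloid cells were the highest type for 8 of these 17. They were the C1q chains C1qb and C1qc, the receptors C3ar1 (193 CPM) and C5ar1 (330 CPM) for the C3a and C5a fragments, the complement receptor 3 chains Itgam (150 CPM) and Itgb2 (112 CPM), properdin (Cfp, 186 CPM), which stabilises the alternative pathway convertase, and the lectin Fcna (21.7 CPM). Endothelial cells led for Cd93 (1079 CPM) and Cr1l (74.6 CPM), a membrane inhibitor of rodents. Fibroblast 2 cells led for thrombomodulin (Thbd, 265 CPM, next Endothelial at 105 CPM). They led narrowly for Colec12 (65.7 CPM, next Fibroblast proliferating at 63.35 CPM) and C1qbp (436 CPM, next RPE at 421 CPM). Fibroblast cells led for C4bp (23.7 CPM), RPE cells for clusterin (Clu, 144 CPM), an inhibitor of the membrane attack complex, and Pericyte cells for Csmd1 (22.9 CPM). The genes of the membrane attack complex (Hc, C6, C7, C8a, C8b, C8g and C9) had 212 UMIs in all, 180 of them C8g.

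The genotype comparison asked whether loss of Dram2 changed these genes. No member passed an adjusted p of 0.05 by voom-limma in the whole samples, where 8 of the 9 members were tested and C4b was left out by the filter on low counts. The background was 0% of 22580 genes called (1583 at an unadjusted p under 0.05), 0 by edgeR (1507 unadjusted) and 381 by DESeq2 (1417 unadjusted), and DESeq2 called no member either. Of the 8 members, 3 had a positive and 5 a negative log2 fold change, with a median of -0.063 against 0.0046 over all genes tested.

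In whole samples, C1ra was the only member whose samples did not overlap between genotypes. It was at 0.775, 0.648 and 0.635 CPM in Dram2 wt/wt and at 0.496, 0.527 and 0.408 CPM in Dram2 ko/ko, each Dram2 ko/ko value below each Dram2 wt/wt value, as happened in 1 direction or the other for 11.5% of all genes tested. The log2 fold change was -0.51 (SE 0.212, voom-limma adjusted p = 0.67, unadjusted p = 0.0431). The 2 genotypes did not overlap in Fibroblast cells either, with a log2 fold change of -0.56 (SE 0.207, voom-limma adjusted p = 0.532), where 11.6% of all genes tested did not overlap. In Fibroblast 2 cells it was -0.60 (SE 0.334, voom-limma adjusted p = 0.887), also without overlap, as for 11.4% of all genes tested there. In sub-cluster 1, which holds most Fibroblast cells, it was -0.68 (SE 0.236, voom-limma adjusted p = 0.458), without overlap, as for 11.5% of all genes tested there. The 4 values come from overlapping sets of the same cells. Whole samples held 45 to 89 C1ra UMIs each. Over all samples together, Fibroblast cells held 227, sub-cluster 1 held 157 and Fibroblast 2 cells only 68.

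C1qa was at 1.65, 5.08 and 3.05 CPM in the Dram2 wt/wt samples and at 1.39, 1.15 and 4.32 CPM in the Dram2 ko/ko samples, a log2 fold change of -0.60 (SE 0.529, voom-limma adjusted p = 0.92). The samples held 9, 32 and 15 Myeloid cells in Dram2 wt/wt and 3, 11 and 14 in Dram2 ko/ko, and in a whole sample fewer Myeloid cells and less C1qa per cell cannot be told apart. Within Myeloid cells, 2 samples against 2, it was -0.12 (95% interval -0.61 to 0.38, voom-limma adjusted p = 0.964). In batch 1 alone, without Dram2 ko/ko replicate 3, the whole-sample value was -1.19. Over 14 alternatives it ran from -1.19 to -0.23, with an adjusted p of 0.326 to 1.00 among voom-limma, edgeR and DESeq2.

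For C1s1 the whole-sample levels were 3.39, 3.01 and 3.19 CPM in Dram2 wt/wt and 4.18, 3.17 and 3.17 CPM in Dram2 ko/ko. The log2 fold change was 0.14 (SE 0.149, voom-limma adjusted p = 0.924), and ran from 0.0027 to 0.21 over 14 alternatives. In Fibroblast 2 cells it was -0.22 (SE 0.174, voom-limma adjusted p = 0.887). C3 was at 0.688, 0.799 and 0.668 CPM in Dram2 wt/wt and 0.671, 0.545 and 0.798 CPM in Dram2 ko/ko, with a log2 fold change of -0.090 (SE 0.206, voom-limma adjusted p = 0.962). Cfb was at 0.0958, 0.249 and 0.220 CPM against 0.145, 0.188 and 0.172 CPM, a log2 fold change of -0.036 (SE 0.391, voom-limma adjusted p = 0.995). For both, the genotypes overlapped in whole samples, and the cell types with the highest means, Myeloid for C3 and Endothelial for Cfb, had too few UMIs to be tested. The C3 values of Myeloid cells given above did not overlap between genotypes, from 1 to 4 UMIs a sample and with 2 samples against 2, where 33.7% of all genes tested did not overlap. C4b was not tested, and its UMIs numbered 3, 5 and 0 in Dram2 wt/wt against 0, 3 and 5 in Dram2 ko/ko.

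The inhibitors overlapped between genotypes in whole samples. Serping1 was at 12.3, 18.03 and 14.05 CPM in Dram2 wt/wt and 15.3, 12.0 and 19.6 CPM in Dram2 ko/ko, a log2 fold change of 0.084 (SE 0.187, voom-limma adjusted p = 0.961), and of 0.14 (SE 0.242, adjusted p = 0.952) in Fibroblast cells. In batch 1 alone both turned, to -0.089 and -0.084. Cd55 was at 10.5, 12.4 and 14.4 CPM in Dram2 wt/wt and 10.9, 10.1 and 10.5 CPM in Dram2 ko/ko. This is a log2 fold change of -0.22 (SE 0.130, voom-limma adjusted p = 0.894), with a range of -0.33 to -0.11 over 14 alternatives. In Endothelial cells the value was -0.52 (SE 0.383, voom-limma adjusted p = 0.982). In sub-cluster 3, Cd55 was at 8.04, 9.32 and 10.9 CPM in Dram2 wt/wt and 7.20, 7.43 and 7.78 CPM in Dram2 ko/ko, without overlap, as for 10.1% of all genes tested there. The log2 fold change was -0.28 (SE 0.160, voom-limma adjusted p = 0.955). In batch 1 alone the Endothelial value was -1.03, against a range of -1.04 to -0.091 over 14 alternatives (lowest adjusted p = 0.80 among voom-limma, edgeR and DESeq2). Cd59a was at 16.4, 19.5 and 13.1 CPM in Dram2 wt/wt and 16.1, 13.0 and 27.1 CPM in Dram2 ko/ko, a log2 fold change of 0.17 (SE 0.251, voom-limma adjusted p = 0.934), and of -0.050 (SE 0.254, adjusted p = 0.984) in Pericyte cells. In RPE cells the Cd59a value was 0.21 with a 95% interval from -1.26 to 1.67, which is wide in both directions. In batch 1 alone the whole-sample value turned to -0.13.

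**Figure D5:**
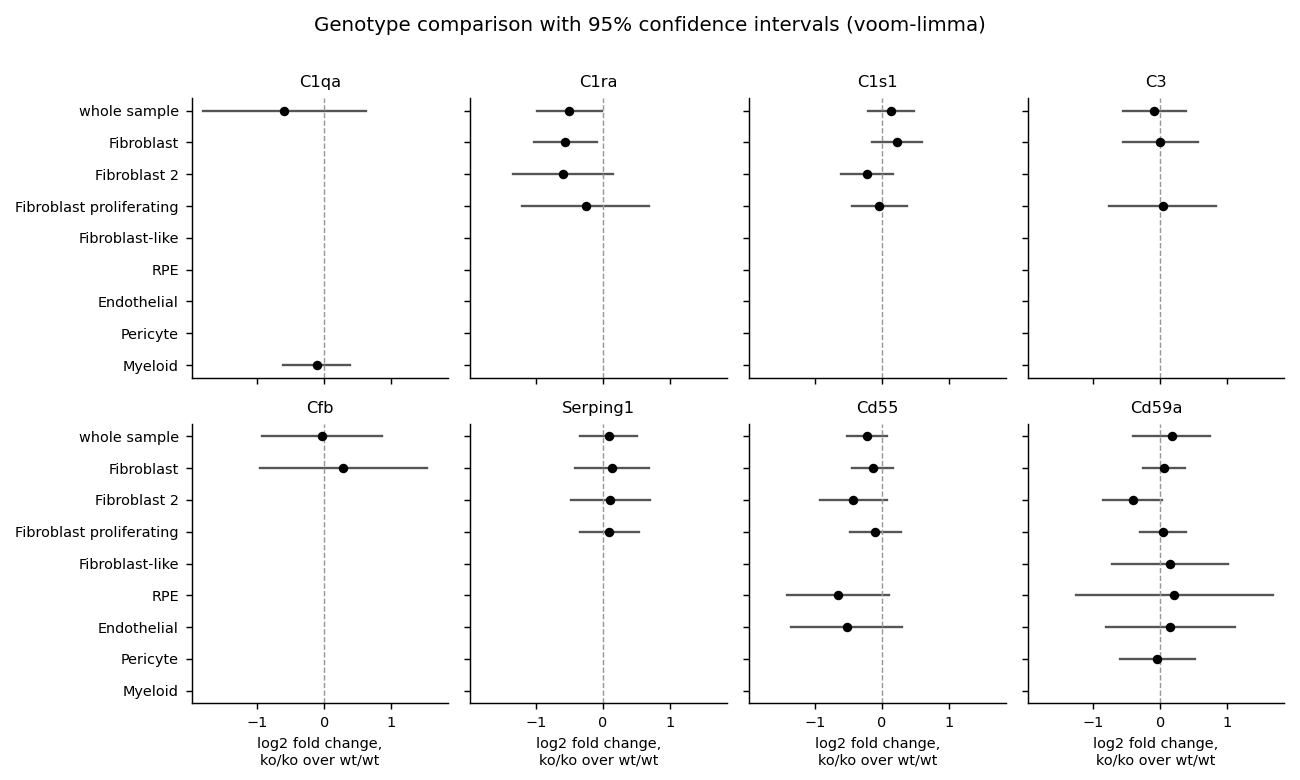
Log2 fold change of Dram2 ko/ko over Dram2 wt/wt (x axis) for the 8 tested members in whole samples and cell types (y axis), points with 95% confidence intervals from voom-limma; empty lines were not tested. The interval of C1ra lies below 0 in whole samples (-0.99 to -0.020) and Fibroblast cells (-1.03 to -0.088), and none of the values passed an adjusted p of 0.05.

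Over all 17 comparisons, 60 tests of members were made by voom-limma and 0 were called. At an unadjusted p under 0.05 there were 4, C1ra in whole samples, Fibroblast cells and sub-cluster 1 and Serping1 in sub-cluster 7. There, in this order, 1583 of 22580, 1427 of 19886, 1374 of 19049 and 557 of 7711 genes had such a p. Of the 60 fold changes 36 were negative, but the comparisons share cells, so these are not separate observations. By cell type, 7 members were tested in Fibroblast, 5 in Fibroblast 2, 6 in Fibroblast proliferating, 2 each in RPE and Endothelial, and 1 each in Fibroblast-like, Pericyte and Myeloid cells. The share of all tested genes called was 0.624% in Fibroblast proliferating, 0.222% in Fibroblast 2, 0.0296% in Myeloid, 0.0118% in Pericyte and 0.00503% in Fibroblast cells, and 0% in Fibroblast-like, RPE and Endothelial cells. In sub-clusters 1 to 8 it was 0.32%, 0.55%, 0.00634%, 0.722%, 0%, 0%, 0.402% and 0%. Sub-cluster 8 had no member past the filter, and sub-cluster 9 had too few cells for a test.

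Serping1 in sub-cluster 7 had the highest fold change among the member tests. It was 0.73 on the log2 scale (SE 0.333, voom-limma adjusted p = 0.665, unadjusted p = 0.0438). Dram2 ko/ko replicates 1 and 3 were above all Dram2 wt/wt samples and Dram2 ko/ko replicate 2 below them. Without Dram2 ko/ko replicate 2 it was 1.28 (voom-limma adjusted p = 0.00387), so this 1 sample decides the call, and over all 14 alternatives it ran from 0.39 to 1.28 with an adjusted p of 0.00387 to 1.00. Over the settings, 0 to 86 of all genes were called there. The samples held 53, 13 and 21 of these cells in Dram2 wt/wt and 26, 79 and 22 in Dram2 ko/ko. Among all Fibroblast cells, the most Serping1 UMIs in 1 cell were 96, in Dram2 ko/ko replicate 1. The sub-cluster of that cell was not looked up. In sub-cluster 4, C1ra had 7, 7 and 7 UMIs in Dram2 wt/wt and 1, 2 and 1 in Dram2 ko/ko, too few to be tested, and 11.1% of the genes tested in this sub-cluster did not overlap.

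Of the 48 other pathway genes, 29 were tested in whole samples and 0 were called by voom-limma, 1 at an unadjusted p under 0.05, with 15 higher and 14 lower in Dram2 ko/ko and a median log2 fold change of 0.023. Over all comparisons, which share cells, 196 tests of these genes gave 0 calls and 9 at an unadjusted p under 0.05. Of the 9, those in whole samples, Fibroblast 2 cells and sub-clusters 2, 3 and 7 were of the same gene, Colec12. Among all genes, 1583 of 22580 had such a p in whole samples. Colec12, a scavenger receptor of the collectin family, was at 83.5, 68.0 and 71.2 CPM in sub-cluster 7 of Dram2 wt/wt and at 151, 113 and 181 CPM in that of Dram2 ko/ko, without overlap, as for 12.3% of all genes tested there. Its log2 fold change was 0.92 (SE 0.213, voom-limma adjusted p = 0.0887). It was called by DESeq2 (adjusted p = 0.044, 39 genes called) and without the filter on low counts (voom-limma adjusted p = 0.0371, 86 genes called). It was also called without Dram2 ko/ko replicate 2 (voom-limma adjusted p = 0.00922). The other alternatives did not call it, among them edgeR, library size alone, batch as covariate and the replicate block. Colec12 was higher in Dram2 ko/ko without overlap in other comparisons too. The log2 fold change was 0.19 in whole samples, 0.27 in Fibroblast 2 cells and 0.23 in sub-cluster 3 (voom-limma adjusted p = 0.701, 0.467 and 0.823). Of all genes tested there, 11.5%, 11.4% and 10.1% did not overlap. In Fibroblast cells the value was 0.17, with overlap.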

How the data were processed

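RNA of cultured RPE and choroid cells from 3 Dram2 wt/wt and 3 Dram2 ko/ko samples was counted by 10x Genomics 3′ sequencing. The authors deposited UMI counts per gene and cell, not normalised, made with Cell Ranger 3.1.0 on GRCm38 per the submitters' processing notes, with exons only, and a table with the sample, cell type and sub-cluster of each cell, named by the authors from Louvain clusters after Seurat integration across batches. Symbols came from a gene name table, in which 52403 of 52636 identifiers matched, and positions from the GENCODE annotation of GRCm38. Whether the samples were separate cultures or animals is not stated, so p-values measure the spread between these samples. All cells were kept and no doublet caller was run.

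Counts were summed per sample and per type or sub-cluster (at least 10 cells), given as CPM of the summed UMIs with the SD over samples, and compared between Dram2 ko/ko and Dram2 wt/wt by voom-limma (R 4.3.3 with limma 3.58.1) after filterByExpr and TMM scaling (edgeR 4.0.16), without covariates, in units with at least 2 samples per genotype. Adjustment was by Benjamini-Hochberg over all genes tested. Types and sub-clusters came from the same cells, so levels between them carry no test. For shares of cells with a UMI, cells were thinned to 4000 UMIs, leaving out 219 Dram2 wt/wt and 333 Dram2 ko/ko cells, with exact binomial 95% intervals. A count of 0 allows up to 3 counts of the total over all cells of the unit. Shared 3′ sequence is the share of 31-base words in the last 400 bases of a gene's transcripts that another gene's transcripts hold on either strand. The fits were run on simulated counts of whole samples and Fibroblast cells, with known changes larger than those of the members here. That run does not cover small changes, genes with very few UMIs or smaller units. Alternatives were edgeR's quasi-likelihood test, DESeq2 1.42.0, library size alone, no filter, batch as covariate, the replicate number as a block, each sample left out, a cell filter (at least 500 genes, at most 20% mitochondrial counts) and dropping, within a sample, the 5% of cells highest in UMIs.

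The members, the list of 48 pathway genes and the marker lists were chosen with earlier results of these data known. The 9 members and their copies were named in every case, and pathway genes when called or at a mean of at least 20 CPM in a type. The further pathway genes named (C2, those with 0 UMIs, the membrane attack complex) were named after their values were seen. The result of 1 pathway gene is not reported here.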

Additional observations from a re-analysis of the deposited data

Results flagged for a closer look

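C3ar1, the receptor for the C3a fragment, had opposite directions in Myeloid cells and in sub-cluster 4. It was found by a search over all members, pathway genes and comparisons for non-overlap upward in 1 comparison and downward in another. In Myeloid cells the 2 Dram2 ko/ko samples, at 244 and 220 CPM, lay above the 2 Dram2 wt/wt samples, at 94.7 and 214 CPM, with a log2 fold change of 0.75. In sub-cluster 4 the 3 Dram2 ko/ko samples, at 1.26, 0.882 and 0.744 CPM, lay below the 3 Dram2 wt/wt samples, at 1.65, 1.72 and 1.86 CPM, with a log2 fold change of -0.85 from 4 to 17 UMIs a sample. Neither passed the threshold in voom-limma (adjusted p = 0.834 and 0.761). Without Dram2 wt/wt replicate 3 the Myeloid value was 1.32, from 1 Dram2 wt/wt sample against 2 Dram2 ko/ko samples. The 1 Dram2 wt/wt sample is there assumed to vary like the others, so no call is read from that fit. Sub-cluster 4 is 99.0% Fibroblast cells, but the log2 fold change was 0.15 in all Fibroblast cells and 0.24 in sub-cluster 1, both with overlap. The difference between the groups was not tested. Of all genes tested, 33.7% did not overlap between genotypes in Myeloid cells and 11.1% in sub-cluster 4.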

How the results depend on the processing

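No member was called in any of the 17 comparisons, and 230 of 231 repeats of this count under 14 alternatives gave 0 again. The exception left out Dram2 ko/ko replicate 2 in sub-cluster 7, so leaving out single samples gave 0 to 1 there. Of 234 repeats of 17 fold changes, 214 kept direction and side of the threshold. Directions turned for values near 0. With batch as a covariate the log2 fold change of Serping1 was -0.091 in whole samples and -0.10 in Fibroblast cells, and that of Cd59a in whole samples -0.13. Leaving out single samples gave, in whole samples, -0.089 to 0.24 for Serping1, -0.13 to 0.38 for Cd59a, -0.22 to 0.028 for C3 and -0.44 to 0.19 for Cfb, and, in the leading types, -0.084 to 0.41 for Serping1 in Fibroblast, -0.34 to 0.095 for C1qa in Myeloid and -0.26 to 0.097 for Cd59a in Pericyte cells. In Myeloid cells, leaving out a sample leaves 1 sample in a genotype, which is assumed to vary like the others. Cd59a in Pericyte cells also turned with edgeR (0.041), DESeq2 (0.063) and the replicate block (0.017), and Cfb in whole samples without the 5% of cells with the most UMIs (0.11). The cause was not tested.

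No sign that the replicate numbers pair the samples was seen. Same-numbered whole samples deviated from their group means with correlations of 0.099, -0.43 and 0.028. Whole samples also differ in their makeup of cell types, so these values cannot exclude a pairing. With the replicate block 0 members were called in every comparison where it could be fitted, and 0 genes were called in whole samples. The number of all genes called ran from 0 to 381 in whole samples, from 0 to 321 in Fibroblast, from 0 to 168 in Fibroblast 2, from 0 to 320 in Fibroblast proliferating and from 0 to 25 in RPE cells over the alternatives, each time with DESeq2 as the highest. The block could not be fitted in sub-cluster 8, where no residual degrees of freedom were left.

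Of 145 repeats of levels and shares, 132 moved by less than 1 SD. Thinning sets the shares of cells with a UMI, given here as the mean of the samples and not pooled over cells. Without thinning they were 85.8% for C1qa in Myeloid, 2.47% for C1ra and 13.3% for C1s1 in Fibroblast 2, 9.96% for C3 in Myeloid, 32.2% for Serping1 in Fibroblast, 26.3% for Cd55 in Endothelial and 53.0% for Cd59a in Pericyte cells. Thinned to 8000 UMIs they were 0.869% for C1ra, 4.74% for C1s1, 12.2% for Serping1, 25.4% for Cd55 and 33.6% for Cd59a in the same types. Leaving out single samples, an alternative chosen after seeing the data, gave a pooled RPE share of the Cd59a UMIs of 10.9% to 25.7%. Without the 5% of cells with the most UMIs, C1qa in Myeloid cells was at 1141 CPM.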

Other observations

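Within the cells named RPE, the level of Cd59a was also looked up below and above the median summed level of the 10 RPE markers in a cell, 208.5 CPM, a split chosen after the values were seen and with no test. Of the 1492 cells, 247 lay within 1.5-fold of this median, and 83.6% of the marker UMIs were of Krt18. In Dram2 ko/ko replicate 3, Cd59a was at 118 CPM in the 410 cells below the median and at 53.4 CPM in the 165 cells at or above it. In Dram2 wt/wt replicate 2 it was at 101 CPM in 279 cells below and at 24.9 CPM in 260 cells at or above. The other 4 samples had 9 to 25 cells below the median, with Cd59a at 25.3, 34.4, 69.5 and 12.6 CPM there in Dram2 wt/wt replicates 1 and 3 and Dram2 ko/ko replicates 1 and 2, against 29.2, 27.9, 21.8 and 16.2 CPM at or above it. Cd59a was thus higher below the median in 4 of 6 samples. In the other 4 samples, in the order given, the values below it rest on 5, 24, 16 and 3 Cd59a UMIs. The median depth below and at or above it was 8764 and 20350 UMIs in Dram2 wt/wt replicate 2. In Dram2 ko/ko replicate 3 it was 27170 and 28590 UMIs. Dram2 ko/ko replicate 3 gave 63.4% of all Cd59a UMIs of RPE cells and 38.5% of the cells.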
